A study of Mus musculus with 4 samples.

Results

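Zinc finger genes named Zfp followed by a number form one of the largest gene families of the mouse. Ribosome footprints on this family were compared between wild type (WT) and Mettl3-knockout (KO) mouse cells, both as embryonic stem cells (ESCs) and as embryoid bodies (EBs), the aggregates that ESCs form when they are left to differentiate. The members, chosen by name, position and mean level, were the autosomal genes whose whole symbol is Zfp and digits, without Zfp42, and whose deposited value averaged at least 25 over the 4 libraries. Of 341 such autosomal genes among the 20716 genes of the table, 230 passed this minimum. The other 111 comprised 54 with no read in any library and 57 with reads but a mean under 25. Zfp764, at a mean of 24.9, lay just outside the minimum, and Zfp943 (25.6) and Zfp97 (25.9) lay just inside it. Members were thus selected on their mean level over the libraries compared, so a gene could pass through 1 high library, and the family was picked for description with earlier results of these data known.

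The 4 libraries were WT ESCs, Mettl3-KO ESCs, WT EBs and Mettl3-KO EBs, 1 library each, all labelled C57BL/6. The ESCs were kept in serum-free N2B27-based medium with LIF and the inhibitors CHIR99021 and PD0325901 (2i). The EBs were grown in non-adherent plates in serum medium for 8 to 21 days, a range given for both genotypes together. Mettl3 encodes the catalytic subunit of the methyltransferase that places N6-methyladenosine (m6A) in mRNA. The number of KO clones is not stated in the labels. With 1 library a group, differences between conditions have no replicate check, and KO below means the library labelled Mettl3-KO.

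C2H2 zinc finger proteins bind DNA through tandem fingers, each folded around a zinc ion held by 2 cysteines and 2 histidines. Many of them also carry a KRAB domain, which recruits the corepressor Trim28 and, through it, histone methylation that silences chromatin. In ESCs such KRAB zinc finger proteins are known for silencing retroelements and protecting imprints. Members without KRAB are more varied and include transcription activators, ubiquitin ligases and RNA-binding proteins.

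A pattern for the KRAB A box, the part that contacts Trim28, was found in the RefSeq coding sequence of 127 of the 230 members, and 103 members had no match. Below, with and without KRAB means with and without a match to this pattern. A box of another spelling would be missed, so a member without a match may still carry the domain. The number of C2H2 fingers ran from 0 in 5 members to 33, with a median of 11. The members' coding sequences had a median GC content of 47.9%, against 53.3% over all genes tested. Members with the KRAB pattern had a median of 43.5% and members without it 54.8%. The longest coding exon had a median of 1468.5 bases in members and 279 over all genes tested. The family therefore spans a wide range of base composition, from 34.4% GC in Zfp758 to 69.6% in Zfp580, and the differences between genotypes varied along that range. A finger from each of 8 members shows what this range of composition looks like. Among members at 100 or more in WT or KO EBs, other than Zfp608, they have the 4 lowest and the 4 highest ratios of KO EBs to WT EBs; some members of lower value lay further out. Zfp608, with a lower ratio than these, no KRAB and a GC content of 53.2%, is not shown, so the sequences illustrate the range and do not stand for every low member. The DNA is RefSeq's on GRCm38, in the direction of the coding strand, and the capitals mark the codons of the 2 cysteines and the 2 histidines. The first 4 genes are the low ones and the last 4 the high ones.
Zfp760: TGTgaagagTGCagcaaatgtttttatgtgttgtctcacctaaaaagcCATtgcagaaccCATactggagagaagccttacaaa
Zfp229: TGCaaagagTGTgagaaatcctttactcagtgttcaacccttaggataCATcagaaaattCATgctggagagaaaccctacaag
Zfp948: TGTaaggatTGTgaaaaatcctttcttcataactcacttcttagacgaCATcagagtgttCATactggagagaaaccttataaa
Zfp984: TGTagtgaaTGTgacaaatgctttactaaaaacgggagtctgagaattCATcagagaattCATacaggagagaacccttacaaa
Zfp771: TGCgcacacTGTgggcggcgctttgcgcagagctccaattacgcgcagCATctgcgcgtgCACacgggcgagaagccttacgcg
Zfp580: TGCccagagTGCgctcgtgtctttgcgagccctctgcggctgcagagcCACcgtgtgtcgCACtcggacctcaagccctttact
Zfp689: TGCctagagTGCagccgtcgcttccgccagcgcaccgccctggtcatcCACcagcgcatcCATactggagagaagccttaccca
Zfp423: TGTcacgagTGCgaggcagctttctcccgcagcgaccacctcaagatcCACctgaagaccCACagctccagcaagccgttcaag

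Each unit is 84 bases long and lies in a coding exon. It is not always the middle finger, being finger 3 of 27 in Zfp423 and finger 1 of 3 in Zfp580. The 4 low members held 29 to 34 G or C bases per unit (34.5% to 40.5%), and the 4 high members held 50 to 55 (59.5% to 65.5%). The low units lie at chr17:21723145-21723228 (Zfp760), chr17:21746147-21746230 (Zfp229) and chr17:21587862-21587945 (Zfp948) on the plus strand, and at chr4:147755256-147755339 (Zfp984) on the minus strand. The high units lie at chr7:127254108-127254191 (Zfp771) and chr7:5053096-5053179 (Zfp580) on the plus strand, and at chr7:127444503-127444586 (Zfp689) and chr8:87783022-87783105 (Zfp423) on the minus strand. In Zfp984, 29 of the 57 windows of 28 bases in the unit also occur elsewhere in the genome, against 3, 2 and 0 in the other low units and 0 in every high unit. A footprint is about as long as such a window, so reads from copied windows can align to more than 1 place. The deposited table keeps such reads (48.4% to 55.7% of all reads in the table) in a row of their own that belongs to no gene.

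The libraries held 4075850 to 11455539 reads on genes, the KO EB library being the smallest and the KO ESC library the largest. Where 4 values are printed in a row below, their order is WT ESCs, KO ESCs, WT EBs, KO EBs. Members took 0.878%, 0.991%, 0.908% and 0.733% of these reads, with a median of 163, 247.5, 82 and 59 reads per member. Mettl3 itself had values of 563 and 298 in WT and KO ESCs and 429 and 327 in WT and KO EBs; these are sums over its coding sequence, and they do not show whether a deleted part was translated. The labelled cell types were set against marker lists. Pluripotency markers, 7 of 8 of which passed the minimum, summed to 22929, 16366, 15955 and 21356. Their sum in KO EBs thus lay between those of WT and KO ESCs, but single markers differed. Pou5f1 was at 2860, 1914, 1493 and 3205, and Utf1 at 1262, 2234, 5104 and 5553. Klf4 was at 2371, 1705, 243 and 1088, and Tfcp2l1 at 5653, 2741, 1446 and 1620. In KO EBs 6 of the 8 lay above KO ESCs. The 8 visceral endoderm markers summed to 45213 in WT EBs but to 1530 in KO EBs, and to 173 and 162 in the WT and KO ESCs. The 8 fibroblast and matrix markers summed to 441 and 2690 in WT and KO ESCs and to 1174 and 7902 in WT and KO EBs, with 1 of the 8 at 0 in every library. The neural markers summed to 703 to 1899 with 3 of 6 at 0, and the blood markers to 10.1 to 101.5 with 4 of 5 at 0. The genes at 0 were the same in every library, and a listed 0 need not measure a gene's level. The marker levels of the 2 EB libraries therefore differed, and their part in the results on Zfp genes was not tested. Footprint values were not set against mRNA levels here. In bulk footprints fewer cells of a type, less mRNA per cell and less translation of each mRNA cannot be told apart.

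KO EBs stood below the other 3 libraries in the family's summed level. Summed over all 230 members, the value was 58560 and 60570 in WT and KO ESCs and 59923 and 44625 in WT and KO EBs. The 127 KRAB members accounted for most of the gap: their sum was 22317 and 21290 in WT and KO ESCs and 22329 and 12755 in WT and KO EBs. The ratio of KO EBs to WT EBs was 0.571 for the KRAB members (95% interval 0.556 to 0.587, from counting error only) and 0.848 for the members without KRAB (0.832 to 0.864). The sums of the KRAB members in WT ESCs and WT EBs could not be told apart (ratio 1.00, 0.981 to 1.02).

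**Figure D1:**
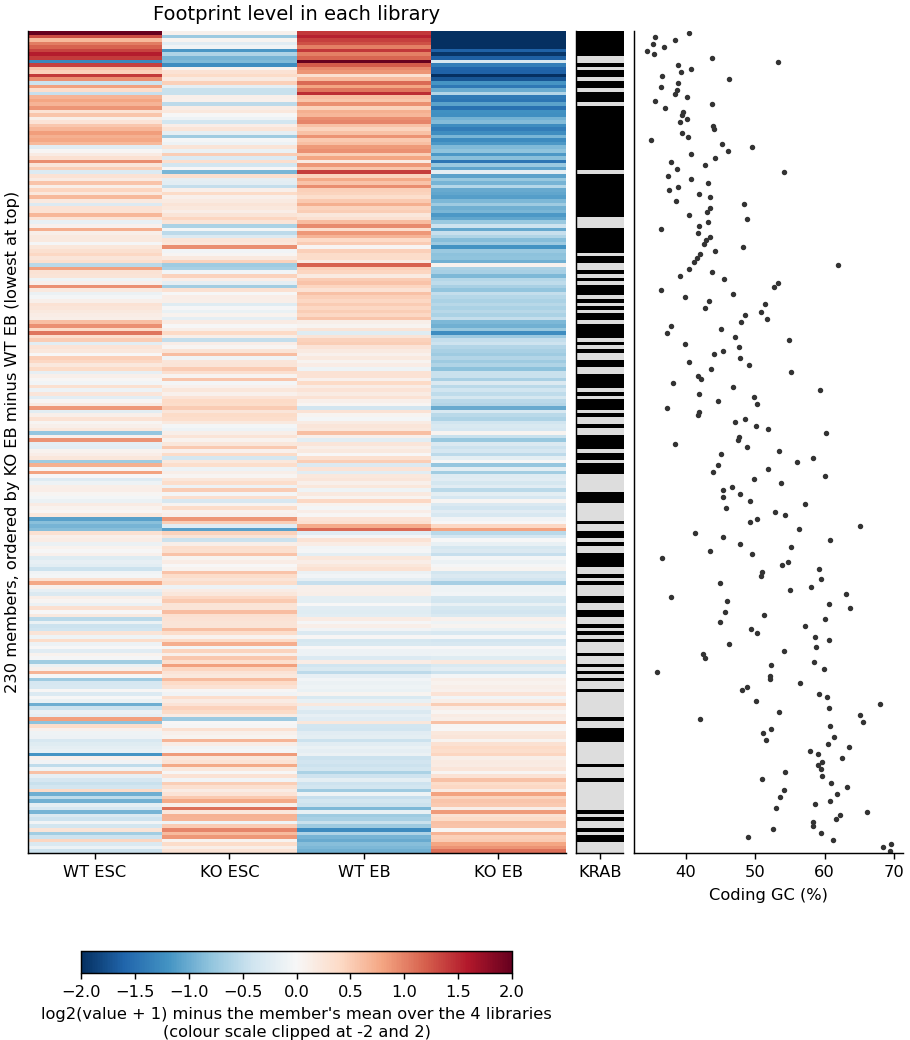
Footprint level of each of the 230 members (rows) in the 4 libraries (columns), as log2(value + 1) minus the member's own mean, beside a black mark for a KRAB A box and the GC content of the coding sequence in percent. Members are ordered by the difference between KO EBs and WT EBs; the low members at the top are mostly marked black and low in GC, and the blue in the KO EB column is not matched in the WT EB column.

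Member by member, the KO EB value of 85 of the 230 (37.0%) was 2-fold or more below WT EBs on the scale of log2(value + 1), as it was for 12.2% of all 9670 genes tested. A further 13 members were at least 2-fold higher, against 15.2% of all genes. The members' median was -0.54 on the log2 scale and 173 of 230 lay below 0, while the median of all genes was -0.07. The median of the KRAB members was -1.02, and 66 of these 127 were lower and 5 higher by that much. The median of the members without KRAB was -0.20, and 19 of these 103 were lower and 8 higher. With libraries scaled to the same total, which moved the median of all genes by 0.12, the KRAB members had 54 lower and 5 higher (median -0.91), but the members without KRAB had 12 lower and 12 higher (median -0.09). No such shift was seen between WT ESCs and WT EBs.

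Zfp229, a KRAB protein with 16 fingers, had values of 444 and 394 in WT and KO ESCs and 598 and 104.5 in WT and KO EBs. Its KO EB value stood far below the other 3, and was 5.73-fold below WT EBs (95% interval 4.43 to 7.50). Zfp948, its neighbour on chromosome 17, was at 73.9, 140 and 220 in WT ESCs, KO ESCs and WT EBs and at 43.3 in KO EBs, which was 5.08-fold below WT EBs (3.39 to 7.86). Its KO value was thus above WT in ESCs and below WT in EBs. Zfp760 differed at both stages: 125 in WT ESCs against 19.7 in KO ESCs, and 114 in WT EBs against 17.9 in KO EBs. The ratio was 6.35-fold at either stage (4.42 to 9.34 in ESCs and 3.43 to 12.9 in EBs), so that genotype and not stage divided its values. Zfp984 was at 110.5 and 54.4 in WT and KO ESCs and at 107.5 and 22.4 in WT and KO EBs, a ratio of 0.208 between the EBs (0.111 to 0.368).

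Zfp971 had the lowest ratio of any member. Its values were 127.6 and 30.9 in WT and KO ESCs and 79.5 and 1.49 in WT and KO EBs, the last of which is a single read. The ratio of KO EBs to WT EBs was 0.0188 with a counting interval of 0.000466 to 0.109, and 72.5% of its 28-base windows occur elsewhere in the genome. Zfp608, a member without KRAB and with 1 finger by the pattern, was at 7.01 and 9.60 in WT and KO ESCs and at 109 and 14.9 in WT and KO EBs. Its level was high in WT EBs alone, and it passed the minimum mean through that library, so that a difference from WT EBs was a condition of its entry; the values are a description. Zfp873, with 16 fingers and no match to the KRAB pattern, was at 70.1, 49.1, 92.0 and 14.9 in the same order, lowest in KO EBs as well.

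The members that were higher in KO EBs were few and mostly without KRAB. Zfp771 was at 319 and 525 in WT and KO ESCs and at 220 and 916 in WT and KO EBs, a ratio of 4.17 between the EBs (3.47 to 5.04). Zfp580 was at 83.3, 132, 56.1 and 178, which for the EBs is a ratio of 3.17 (2.16 to 4.73). In both genes the KO value lay above the WT value at each stage, and WT EBs were the lowest library. Zfp689, a KRAB member, was at 201 and 154 in WT and KO ESCs and at 73.3 and 212 in WT and KO EBs, so that WT EBs alone stood low and the ratio between the EBs was 2.89 (2.07 to 4.11). Zfp282, also with KRAB, was at 197 and 419 in WT and KO ESCs and at 167 and 343 in WT and KO EBs, about the same ratio at both stages (2.13, 1.85 to 2.46, and 2.06, 1.63 to 2.61).

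Base composition ordered these differences across the family. Genes tested were divided into deciles by the GC content of their coding sequence, a split made after the values had been seen. Over all genes, the median log2 difference between KO EBs and WT EBs went from -0.85 in the lowest decile (31.9% to 44.5% GC) to 0.78 in the highest (60.9% to 76.5%). The lowest decile held 86 members, 71 of them with KRAB. Their median was -1.41, and 65 of them (75.6%) were at least 2-fold lower, against a median of -0.81 and 36.4% for the 874 other genes of that decile. The 91 members of deciles 2 to 7 had a median of -0.45, with 19 lower and 3 higher. Of the other genes, 20.4% in decile 2 and 7.33% in decile 7 were at least 2-fold lower. Those higher were 42 of 938 and 159 of 955. The 53 members of the 3 highest deciles had a median of 0.35, with 1 lower and 10 higher. In these 3 deciles the medians of the other genes were 0.30, 0.44 and 0.78. Of these other genes 200 of 951, 258 of 935 and 380 of 940 were at least 2-fold higher. Of the members 2 of 8, 1 of 25 and 7 of 20 were.

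The low decile is broad, and members sat at its lower end (median GC 40.4%, against 42.7% for the other genes in it). In ranges of 4 percentage points the gap between members and other genes remained at the low end. From 34% to 38% GC the 21 members had a median of -1.62 and the 23 other genes -1.31. From 38% to 42% the 38 members were at -1.49 with 76.3% at least 2-fold lower, and the 276 other genes at -0.88 with 44.9% lower. From 42% to 46% the medians were -1.03 for 42 members and -0.69 for 1027 other genes. From 58% to 62% they were 0.27 for 36 members and 0.44 for 1472 other genes. The members' median lay below that of other genes in 8 of the 9 ranges between 34% and 70%, and it followed the same gradient. When each gene was set against the median of its own of 20 GC bins, the members' median was -0.28, with 36 at least 2-fold lower and 6 higher; the KRAB members were at -0.35 and the others at -0.23. The 2 classes thus lay closer together than without centring, where they were at -1.02 and -0.20.

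**Figure D2:**
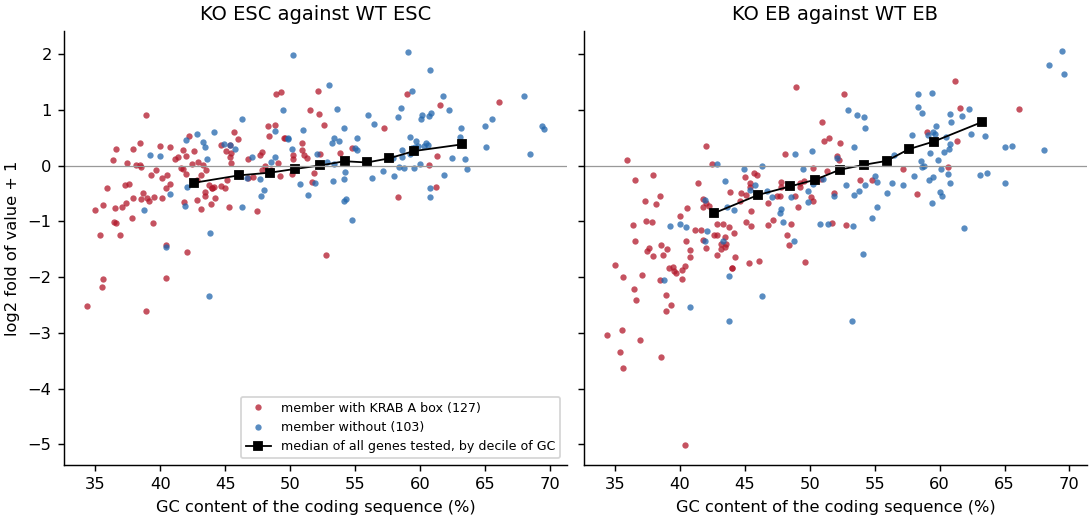
Log2 fold of value + 1 in KO against WT (vertical) by GC content of the coding sequence in percent (horizontal) in ESCs (left) and EBs (right), 1 point per member, red with a KRAB A box and blue without, with black squares for the median of all genes tested in each decile of GC. In EBs the members' median is -1.62 from 34% to 38% GC and 1.65 from 66% to 70%, and single members range from -5.01 to 2.06. Members lie mostly below the black line on the left of the plot, and in ESCs the slope is shallower.

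Across the 230 members, Spearman's rho between GC and the log2 difference was 0.74 for KO EBs against WT EBs and 0.53 for KO ESCs against WT ESCs. Over the 9597 genes with a coding sequence it was 0.51 and 0.30. For WT EBs against WT ESCs rho was 0.02 in members and -0.02 in all genes, so that no such order was seen between the WT libraries. For KO EBs against KO ESCs it was 0.65 and 0.40. These values describe pairs of libraries, and members share sequence with each other. What part GC content has in the differences was not tested.

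Members with 10 or more fingers were lower in GC content than those with fewer, as KRAB members were beside the others. Members with 0 to 4 fingers had a median of -0.31 between the EBs (33 members), those with 5 to 9 fingers -0.32 (59), those with 10 to 14 fingers -1.01 (88) and those with 15 or more -0.74 (50). Their median GC content was 56.3%, 50.8%, 43.8% and 45.0%. Spearman's rho between fingers and the log2 difference between the EBs was -0.27 across members. It was -0.18 in the KRAB members and -0.07 in the others. Copied sequence moved with the difference as well: 165 members with under 10% of their 28-base windows copied had a median of -0.32, with 46 lower and 13 higher, and 65 members with 10% or more had -1.16, with 39 lower and 0 higher. The second set also had the lower GC content (40.0% against 50.2%). The sequence GGACT, a common core of m6A sites, was searched on the coding strand and was present in 76.1% of members and 77.2% of all genes, at a median of 0.80 and 1.08 per kilobase; a match to these letters is not a measured site.

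In ESCs the family as a whole stood level between genotypes. In KO ESCs 16 members were 2-fold or more below WT ESCs, where 4.42% of all genes were, and 15 were as far above, where 10.6% were. The members' median was 0.11 and that of all genes -0.00. Scaling the libraries to the same total, which moved the median of all genes by 0.13, gave 13 members lower and 24 higher. KRAB members had a median of -0.09, with 13 lower and 6 higher, and the others 0.30, with 3 lower and 9 higher. The sign of the KRAB median turned with libraries scaled to the same total (0.04, 10 lower and 9 higher), without members of 10% or more copied windows (0.05) and with centring by GC bin (0.14). The order of the members was similar in ESCs and EBs (Spearman's rho 0.64 across members and 0.39 across all genes), from 4 separate libraries.

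At least 2-fold lower in KO at both stages were 15 members: Zfp971, Zfp942, Zfp944, Zfp345, Zfp758, Zfp534, Zfp329, Zfp760, Zfp820, Zfp984, Zfp260, Zfp709, Zfp101, Zfp770 and Zfp251. They made up 93.75% of the 16 members low in KO ESCs and 17.6% of the 85 low in KO EBs; over all genes these shares were 34.9% and 12.7%, and 1.54% of all genes were low at both stages. None of the 15 had a mean of 100 or more, 10 of them remained with libraries scaled to the same total, and 6 remained with centring by GC bin. Zfp260, without a KRAB match, was at 128 and 54.9 in WT and KO ESCs and at 151 and 37.3 in WT and KO EBs. Zfp101 was at 126 and 46.4 in WT and KO ESCs and at 143 and 40.3 in WT and KO EBs. Zfp770 was at 141 and 50.7 in WT and KO ESCs and at 111 and 50.8 in WT and KO EBs. In each of these 3 genes both KO libraries lay below both WT libraries.

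At least 2-fold higher at both stages were Zfp282, Zfp287, Zfp316, Zfp521 and Zfp524, which is 33.3% of the 15 members high in KO ESCs and 38.5% of the 13 high in KO EBs. Over all genes these shares were 53.3% and 37.2%, and 5.65% of all genes were high at both stages. The members' shares were thus below or close to those of all genes. With libraries scaled to the same total these 5 and 4 others passed. Zfp746, known as PARIS, a repressor that the ubiquitin ligase parkin marks for degradation, was at 219 and 723 in WT and KO ESCs and at 329 and 628 in WT and KO EBs. Both KO libraries lay above both WT libraries, at a ratio of 3.30 in ESCs (2.90 to 3.77) and 1.91 in EBs (1.62 to 2.27). Zfp777, a KRAB member of the same cluster, was at 480 and 1164 in WT and KO ESCs and at 510 and 770 in WT and KO EBs. Zfp629 was at 25.7 and 108 in WT and KO ESCs but at 54.6 and 80.6 in WT and KO EBs, with KO ESCs the highest. Zfp653 was at 73.9, 176, 137 and 255, the KO value above the WT value at each stage.

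With 2 libraries of each genotype, the counts recovered from the values allowed 1 test of genotype over both stages, with 1 residual degree of freedom. By edgeR's quasi-likelihood test 0 members passed an adjusted p of 0.05, as did 0 of all 9670 genes (0.00% in each direction); 33 members had an unadjusted p under 0.05, 24 of them lower and 9 higher in KO. DESeq2 called 3 members, Zfp746 higher (adjusted p = 0.0391) and Zfp760 and Zfp971 lower (adjusted p = 0.0245 and 0.0309), beside 2.60% of all genes higher and 0.734% lower. For all 3 genes edgeR's adjusted p was 0.137 to 0.197. For EBs against ESCs over both genotypes, 0 members passed by either tool, and 7 had an unadjusted p under 0.05 by edgeR. Of all genes, edgeR called 0.207% higher and 0.0517% lower, and DESeq2 2.83% and 1.04%.

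From ESCs to EBs, WT cells showed little change in the family. At least 2-fold higher in WT EBs than in WT ESCs were 15 members, against 11.0% of all genes, and 12 were lower, against 8.25%. The medians were 0.05 in members and -0.02 in all genes, and 0.06 and 0.05 in the KRAB and other members. In KO cells the EB value of 53 members was 2-fold or more below that of ESCs, where 6.65% of all genes were, and 1 was higher, Zfp618, where 9.31% were. The KO median was -0.59, with 188 of 230 below 0, and all genes had -0.08. Among KRAB members the KO median was -0.82 with 43 of 127 lower, and among the others -0.31 with 10 of 103 lower.

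**Figure D3:**
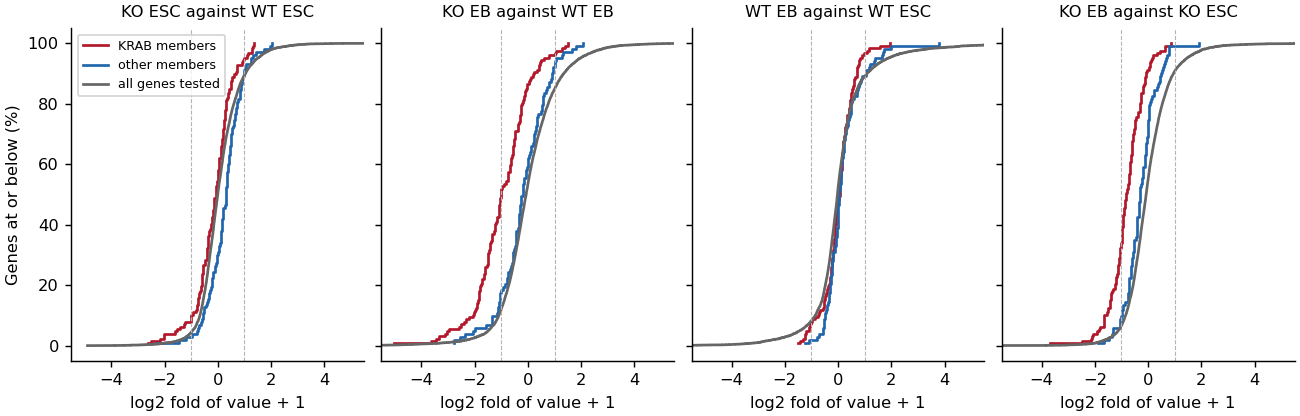
Percent of genes (vertical) at or below each log2 fold of value + 1 (horizontal) in the 4 comparisons, for the 127 KRAB members (red), the 103 other members (blue) and all 9670 genes tested (grey), with dashed lines at 2-fold. The red curve stands left of the others in KO EBs against WT EBs and against KO ESCs, and lies with them in WT EBs against WT ESCs.

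The difference between the 2 changes, KO minus WT, was at or below -1 for 67 members, where 12.5% of all genes were, and at or above 1 for 7, where 11.4% were. Its median was -0.69 in members and -0.08 in all genes. Zfp948 had the most negative difference (-3.23): WT EBs were 2.97-fold above WT ESCs (2.28 to 3.90), while KO EBs were 3.23-fold below KO ESCs (2.20 to 4.92). Zfp689 had the most positive difference, 1.90: WT EBs were 2.74-fold below WT ESCs (2.00 to 3.83) and KO EBs 1.37-fold above KO ESCs (1.12 to 1.69). The difference was not tested, as each change rests on 1 library at each end.

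**Figure D4:**
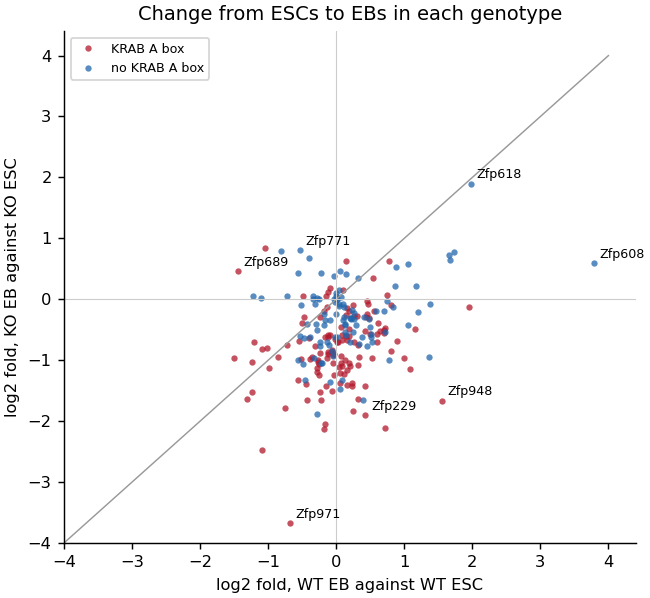
Log2 fold of value + 1 from ESCs to EBs in WT (horizontal) and in KO (vertical), 1 point per member, red with a KRAB A box and blue without; the diagonal marks equal change. Most points lie below the diagonal, with Zfp948, Zfp971 and Zfp608 far below it and Zfp689 and Zfp771 above it.

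A few members without KRAB were higher in EBs of WT. Zfp36 (tristetraprolin), which binds AU-rich mRNA and speeds its decay, was at 107 and 95.5 in WT and KO ESCs and at 358 and 164 in WT and KO EBs. EBs were above ESCs in both genotypes, 3.34-fold in WT (2.69 to 4.15) and 1.72-fold in KO (1.34 to 2.19). Zfp750, a regulator of epidermal differentiation, was at 74.7, 47.5, 238 and 79.1, highest in WT EBs. Zfp618, a partner of Uhrf2, was at 23.4 and 19.7 in WT and KO ESCs and at 95.1 and 76.1 in WT and KO EBs, the one member at least 2-fold higher in EBs of both genotypes. Lower in EBs of both genotypes were Zfp820, Zfp936, Zfp941 and Zfp976. Zfp941 was at 200 and 84.2 in WT ESCs and EBs and at 150 and 73.1 in KO ESCs and EBs. Zfp936 was at 153 and 60.8 in WT, and at 95.5 and 29.9 in KO.

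Position in the genome grouped members of like composition. Runs of numbered Zfp genes whose starts lie at most 500 kb apart gave 14 clusters with at least 4 members, holding 109 of the 230. Of these 109, 50 had a KO EB value 2-fold or more below WT EBs and 8 as far above, against 35 and 5 of the 121 members elsewhere. Over all genes the shares were 12.2% and 15.2%. The 2 sets also differed in class: 84 of the 109 and 43 of the 121 had KRAB, at a median GC content of 45.1% and 49.5%. What part position has was not tested. The cluster on chromosome 17 from 21.0 to 23.6 Mb held 16 members, 15 with KRAB, at a median GC content of 38.7%. Their median was -2.03 between the EBs, and 13 were at least 2-fold lower. Zfp942 in this cluster was at 73.2, 17.1, 85.7 and 5.97, and Zfp758 at 53.7, 8.54, 56.1 and 5.97. At the far end of the same cluster Zfp213 and Zfp13 have GC contents of 60.3% and 60.7%. Zfp213 was at 128, 165, 104 and 124, and Zfp13 at 298, 299, 181 and 178, so that these neighbours of the low genes differed little between genotypes.

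The cluster on chromosome 4 from 147.1 to 147.8 Mb held 6 KRAB members with a median of -1.87, 5 of them at least 2-fold lower. Its largest members by value, Zfp979 (597, 343, 502 and 145) and Zfp982 (547, 323, 416 and 163), were lower in KO at both stages. The cluster's coding sequences had a median GC content of 36.5% and 69.1% of their 28-base windows copied, and reads that aligned to more than 1 place counted for no gene. On chromosome 13 from 67.0 to 67.8 Mb all 12 members carried KRAB and lay below 0 (median -1.24, 8 at least 2-fold lower). Zfp459 there was at 288, 183, 483 and 191, and Zfp759 at 73.2, 48.5, 70.1 and 16.4. On chromosome 17 from 32.8 to 33.6 Mb all 11 members lay below 0, with a median of -1.21 and 7 at least 2-fold lower.

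The remaining clusters on chromosomes 7 and 8 had medians from -1.49 to 0.45 between the EBs. The highest of them, with 9 members on chromosome 7 from 127.2 to 127.9 Mb (59.7% GC), had a median of 0.68 between the ESCs. The opposite of the chromosome 17 clusters was most marked in 2 other clusters of high GC content. On chromosome 6 from 47.8 to 48.6 Mb (59.9% GC), Zfp786, Zfp282, Zfp956, Zfp777, Zfp746 and Zfp775 all lay above 0 at both stages. Their medians were 1.04 in ESCs and 0.97 in EBs, and 3 of the 6 matched the KRAB pattern. On chromosome 7 from 4.92 to 5.05 Mb (65.1% GC), Zfp628, Zfp579, Zfp524, Zfp865 and Zfp580, none matching the KRAB pattern, had medians of 0.66 and 1.30. Zfp524 was at 31.1 and 80.0 in WT and KO ESCs and at 32.7 and 82.1 in WT and KO EBs.

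**Figure D5:**
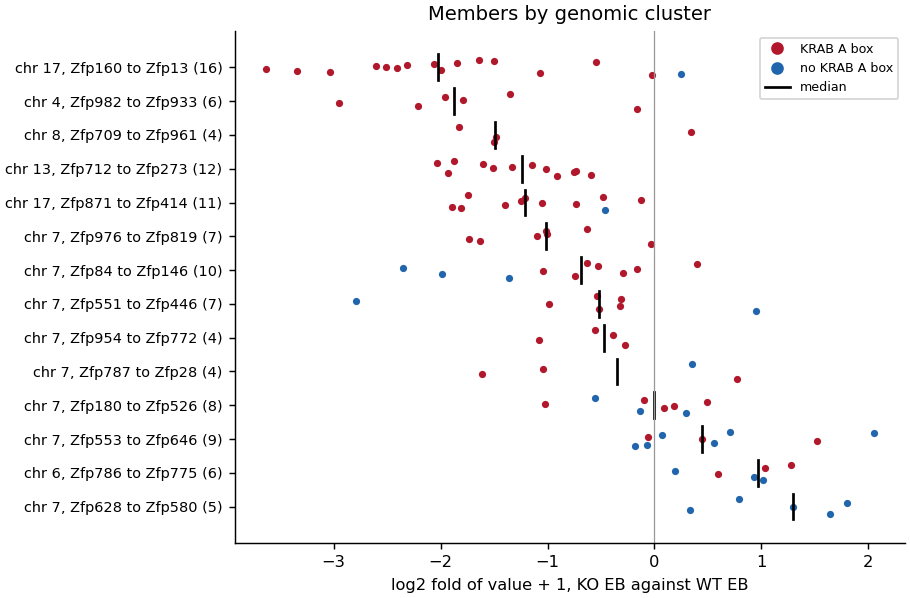
Log2 fold of value + 1 in KO EBs against WT EBs (horizontal) for the members of each of the 14 genomic clusters (rows, named by chromosome, first and last member and number of members), red with a KRAB A box and blue without, with a black bar at each cluster's median. Cluster medians run from -2.03 on chromosome 17 to 1.30 on chromosome 7, and single members differ from their cluster's median.

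Known silencers of imprints and retroelements were mostly outside what the table could show. Of 7 listed, 2 passed the minimum. Zfp445, which keeps imprints methylated, was at 794, 1028, 832 and 536, lowest in KO EBs but less than 2-fold apart. Zfp819, which represses retroelements, was at 244, 264, 167 and 163, with both EB libraries below both ESC libraries. Zfp57, Zfp568 and Zfp708 were listed at 0 in every library, and Zfp809 and Zfp932 had reads but did not pass. Of the 65 autosomal genes with 2 or more coding sequence entries in the table, 46 had no read in any library, against 8 of the 276 with 1 entry, so a listed 0 for such a gene is not a measure of its level.

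The partners of KRAB mostly differed by less than 2-fold. Of 20 genes of the Trim28 corepressor machinery, 13 passed, and between the EBs 0 were at least 2-fold higher and 1 lower (median -0.29). Trim28 itself was at 15017, 8474, 11253 and 9440, highest in WT ESCs and within 2-fold throughout. Mphosph8, a subunit of the HUSH silencing complex, was the one lower gene, at 2189, 1463, 2140 and 1042. Hdac1 was at 600 in WT ESCs and at 246, 201 and 212 in the others. Setdb1 was listed at 0 in every library.

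Among regulators of the pluripotent state, 3 of 6 passed. Zfp462, a large protein with 33 fingers by the pattern that binds heterochromatin factors, was at 2622, 1828, 3056 and 1475. The KO libraries were the lower at both stages; in EBs the log2 difference was -1.05, or -0.93 with libraries scaled to the same total. Zfp143, a transcription activator that also binds at chromatin loops, was at 669, 569, 672 and 370, lowest in KO EBs. Zfp296, a partner of Klf4, was at 1059, 1398, 1088 and 1545, with both KO libraries above both WT libraries and less than 2-fold apart.

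Members that act on ribosomes and RNA include some of the most abundant of the family. Per kilobase of coding sequence, Zfp593, a factor of the large ribosomal subunit's assembly, was the highest of all members, with a mean over the libraries of 1301 per kilobase. Zfp622, another assembly factor of that subunit, followed at 1184. The median member was at 74.6, 77.1, 77.7 and 49.1 per kilobase in WT ESCs, KO ESCs, WT EBs and KO EBs, against 216 to 232 over all genes. Zfp622 had values of 1801, 1581, 1811 and 1585, nearly equal in ESCs and EBs of a genotype. Zfp598, the ubiquitin ligase that marks collided ribosomes, was at 1591, 1203, 957 and 1243, highest in WT ESCs. Zfp106, an RNA-binding protein needed by motor neurons and the member with the highest mean value, was at 4030, 2750, 3309 and 1929, 1.72-fold apart between the EBs (1.60 to 1.84). Zfp346, which binds double-stranded RNA, was at 367, 185, 357 and 185, with both KO libraries at the same level below WT. Of the 8 members of this list that passed, Zfp36 alone was at least 2-fold apart between the EBs.

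All 10 listed members that work in chromatin complexes or as SUMO and ubiquitin ligases passed, and 1 of them was at least 2-fold apart between the EBs. This was Zfp644, a partner of the methyltransferase G9a, at 567, 757, 968 and 378. Zfp532, Zfp592 and Zfp687 belong to one complex with Zmynd8. Zfp532 was at 462, 868, 1064 and 752, lowest in WT ESCs. Zfp592 was at 592, 944, 644 and 646, highest in KO ESCs, and Zfp687 at 816, 763, 768 and 600. Zfp410, an activator of Chd4, was at 61.5, 75.8, 60.8 and 73.1, and Chd4 was at 3440, 4168, 3893 and 3045. The ligases Zfp451 (SUMO; 1016, 1243, 943 and 739) and Zfp91 (ubiquitin; 367, 372, 401 and 278) were lowest in KO EBs, each within 2-fold.

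Among 9 members known from tissue development 7 passed, with 3 at least 2-fold higher and 1 lower in KO EBs. Over all genes 15.2% were higher and 12.2% lower by that much. Zfp423, which acts in adipocyte and cerebellar development, was at 161, 296, 126 and 307, with both KO libraries above both WT libraries and a ratio of 2.44 between the EBs (1.87 to 3.19). Its relative Zfp521 was at 32.7, 90.2, 21.8 and 44.8, with both KO libraries above both WT libraries. Its ratio between the EBs was 2.05, with a wide interval (1.06 to 4.19). Zfp536, known from neuronal differentiation, was at 31.1, 30.4, 23.4 and 49.3, a ratio of 2.11 between the EBs (1.11 to 4.17). Zfp365 was at 184, 121, 77.9 and 125, lowest in WT EBs, and Zfp148 at 448, 583, 385 and 282. The lower one was Zfp750, given above.

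Other zinc finger genes were set beside the members. The 22 KRAB genes with other names had a median of -1.23 between the EBs; 12 were 2-fold or more lower and 0 higher, and a median of -0.82 between the ESCs, with 7 lower and 0 higher. Their median GC content was 40.8%, and a median of 54.2% of their windows were copied. The 130 other genes with at least 2 fingers and no KRAB had a median of 0.08 (GC content 55.9%), with 19 higher and 11 lower. The 23 Zbtb genes had a median of -0.26, the 8 Zscan genes 0.11, the 5 Zkscan genes 0.71 and the 3 numbered Zfp genes on the X chromosome 0.78. KRAB genes outside the numbered family thus had a median as low as that of the KRAB members, and the other sets did not.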

How the data were processed

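The assay was ribosome profiling of 4 mouse libraries, 1 for each genotype and culture. The build was mm10 and the tools included HTSeq 0.6.0, TopHat2 2.0.10, DESeq, Bowtie and CASAVA 1.8.2, per the submitters' processing notes. Settings and strand use were not given in the sources read. The authors deposited DESeq-scaled signal for each RefSeq coding sequence, 27442 entries beside 5 summary rows, which held 66.6% of the KO ESC reads and 72.1% of the WT ESC reads, mostly reads that aligned to more than 1 place, and were left out. Of the entries, 27083 were named from RefSeq's GRCm38.p6 table and summed per gene. All values (100% in each library) equalled a whole number of steps within 0.01, so reads were recovered. The design had assumed values without recoverable reads, and the count test on all 4 libraries, which called 20 genes higher and 5 lower in EBs by edgeR, stayed an alternative. It was tried on simulated data that held a stage effect but no genotype effect, so the genotype test was not checked.

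Folds are differences of log2(value + 1), which understates those of low genes. Genes with a mean of at least 25 were tested (9670). Intervals are 95% exact conditional binomial intervals of the reads and cover counting error only; these reads carry no molecular identifiers. Fingers, the KRAB A box, GC and copied 28-base windows were computed from RefSeq coding sequences. Members and lists were chosen with earlier results of these data known, and GC was looked at after the values. Members were named from several sets, and not every member of a set is named. The sets were the 5 highest and 5 lowest members per comparison with a value of at least 100, and the 4 highest means. They also included the 4 largest differences of EB change either way with a summed value of at least 200. Further sets were the list members, and members of described clusters or close to the minimum. Others were named after their values were seen. Python 3.11.15, pandas 2.3.3, scipy 1.17.1, R 4.3.3, edgeR 4.0.16 and DESeq2 1.42.0 were used, and 0 columns stayed unmatched.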

Additional observations from a re-analysis of the deposited data

Results flagged for a closer look

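The change from ESCs to EBs had opposite signs in the genotypes, past 2-fold in each, in Zfp948 and Zfp658, both KRAB members. For Zfp948 the change in KO minus that in WT was -3.23 on the log2 scale. For Zfp658, with 21 fingers, the values were 33.5 and 47.5 in WT and KO ESCs and 71.7 and 20.9 in WT and KO EBs, the last being 14 reads, and the difference was -2.22. Neither difference was tested, since each group is 1 library.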

How the results depend on the processing

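No paired analysis was possible because each group is 1 library and the labels give no replicate numbers. With pseudocounts of 0.5 or 5, or with genes of a single entry, the counts and medians of each comparison stayed within 1.5 times or 0.1, while a pseudocount of 5 left 3 of the 5 members high at both stages. The direction of the medians over all members held in these settings; that of the KRAB members in ESCs did not, as given above. With a mean of at least 100, counts lower and higher were 37 and 6 (KO EBs against WT EBs), 0 and 5 (KO ESCs against WT ESCs), 4 and 5 (WT EBs against WT ESCs), and 22 and 0 (KO EBs against KO ESCs). With no minimum, 27 were lower in KO ESCs, 21 lower and 25 higher in WT EBs than in WT ESCs, and 7 higher for KO EBs against KO ESCs. Without members of 10% or more copied windows, lower counts were 46 (median -0.32), 7, 7 and 21 (median -0.45) in the same order, and the difference of EB changes had a median of -0.58. With centring by GC bin, added after seeing the data, they were 36 lower and 6 higher for the EBs (median -0.28) and 18 and 2 for KO EBs against KO ESCs (-0.34), with a difference of -0.41. Scaling to the same total moved the median of all genes by 0.13 (ESCs) and 0.12 (EBs); it gave a median of -0.43 for KO EBs against WT EBs, and 0.23 with 24 higher for the ESCs. Members 2-fold apart in the same direction in both pairs were 5 for EBs against ESCs and 20 for KO against WT. Of all 230 members, edgeR called 0 and 0 and DESeq2 0 and 3. Zfp746, called by DESeq2, is not among the 20. Of the values of all members picked for naming by rank or list, 672 stayed within their counting interval and 12 moved beyond it. The cause of these moves was not tested. Members of few reads limit precision: 14 had under 10 reads in KO EBs.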
